A study of Homo sapiens with 4 samples.

Results

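ASNS, ALDH18A1, PYCR1, PRODH, GLUD1, GOT1, GPT2 and GLUL, 8 genes for enzymes that make or break down asparagine, proline, glutamate, glutamine and alanine, were followed in RNA-sequencing of parental SUM159 cells and of NOS2KO clones of the same line. These 8 of the 57500 genes in the count files were chosen by name, with their differences between parental cells and clones already known, so those differences are given as a description and without a test. SUM159 is a triple-negative cell line of metaplastic breast cancer, grown in culture. The parental group was 1 library, from unedited cells. The NOS2KO group was 3 libraries, 1 each from clones labelled 1, 5 and 6, in which NOS2, the gene of inducible nitric oxide synthase, had been targeted with paired Cas9 nickases, followed by puromycin and by choice of clones on iNOS protein and nitrite and nitrate. Each clone therefore stands for 1 selected clone, and the 3 libraries are replicates of the genotype only in that sense.

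Non-essential amino acids are built in a cell from glutamate, glutamine and the acids of the citric acid cycle. ASNS uses the amide nitrogen of glutamine to turn aspartate into asparagine, while ALDH18A1 and PYCR1 turn glutamate into proline by way of pyrroline-5-carboxylate, and PRODH starts the reverse route. GOT1, GPT2 and GLUD1 move nitrogen between glutamate and aspartate, alanine or ammonium, and GLUL joins ammonium to glutamate to give glutamine. The transcription factor ATF4, which is made when amino acids run short or proteins fold badly, is known to activate ASNS through a C/EBP-ATF element in its promoter.

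Gene counts came to 90467395 in the parental library and 97362293 to 122171287 in the clones, at which depth a count of 3 equals 0.0262 to 0.0332 CPM. CPM is a gene's count set against the library's total, here after TMM scaling, which brings libraries to a common level over most genes. NOS2 had 2 counts in parental cells, 3 in clone 1 and 1 in clone 6, and 18 in the library labelled clone 5, so its mRNA does not check the labels. Of the receptors that a triple-negative line lacks, PGR was at 0.0281 CPM or less and ESR1 at 0.0785 to 0.741 CPM, but ERBB2 was at 48.3 to 106 CPM. The mesenchymal genes VIM, FN1, CD44 and ZEB1 were at 39.5 CPM or more. Epithelial genes went both ways, with EPCAM and CDH1 at 0.413 CPM or less, KRT5 and KRT14 at 5.74 CPM or less, and KRT8 and KRT18 at 254 to 806 CPM. Of 2 markers for other cells, PTPRC, a blood cell gene, had 4.45 CPM in parental cells against 68.4, 105 and 41.7 CPM (clone 1, labelled clone 5 and clone 6), and PECAM1, an endothelial gene, had 16.1 CPM against 13.9, 7.06 and 8.64 CPM. PTPRC thus moved with the groups, and its part in the values that follow was not tested. In bulk RNA, fewer cells with a transcript and less of it per cell cannot be told apart.

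Of the 8 genes, 5 were lower in all 3 clones than in parental cells (ASNS, GPT2, PYCR1, ALDH18A1 and GLUD1), none was higher in all 3, GOT1 and GLUL went both ways, and PRODH had no counts. The same was asked of 10708 genes that reached 10 CPM in some library, of which 37.3% were lower in every clone and 27.8% higher. ASNS, GPT2 and PYCR1 were lower by more than 1 on the log2 scale in every clone, and 5.24% of the 10708 genes were. The difference was largest for ASNS and GPT2, and ALDH18A1, the enzyme just ahead of PYCR1 in proline synthesis, kept most of its parental level.

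**Figure D1:**
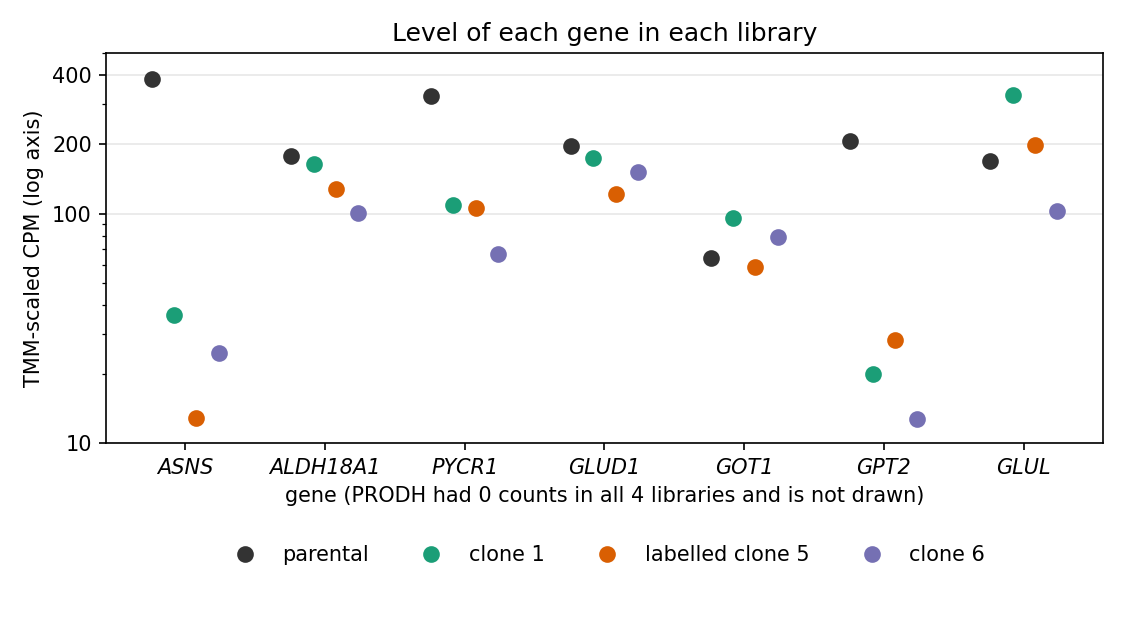
TMM-scaled CPM (log axis) of 7 genes in the parental library and the 3 NOS2KO clones, 1 point per library; PRODH had 0 counts and is not drawn. The parental point stands far above the clones for ASNS (386 against 12.9 to 36.2 CPM), PYCR1 and GPT2, near them for ALDH18A1 and GLUD1, and within their range for GOT1 and GLUL.

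ASNS (ENSG00000070669, chr7:97852118-97872542 on the minus strand of GRCh38) makes asparagine. Parental cells gave 34902 counts, clone 1 gave 4151, the library labelled clone 5 gave 1371 and clone 6 gave 2423. In CPM this was 386 against 36.2, 12.9 and 24.6, a clone mean of 24.5 ± 11.7 (SD, n = 3). The parental library lay far above every clone, which were 10.7-fold (clone 1), 30.0-fold (labelled clone 5) and 15.7-fold (clone 6) lower. The log2 ratios to parental cells were -3.42, -4.91 and -3.97, with exact 95% intervals of -3.46 to -3.37, -4.99 to -4.83 and -4.03 to -3.91. These intervals, like all others here, cover counting error only. By TPM, a level that takes the length of a gene into account, ASNS stood at the percentile 96.0 of genes in parental cells and at 51.9, 21.2 and 40.9 in the clones. Its pseudogene ASNSP1 had 305 counts in parental cells and 8, 11 and 11 in the clones, under 1% of the counts of ASNS in each library. Reads that fit both were not measured.

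The letters TGATGNAA, the form in which the C/EBP-ATF element is usually written, were searched on both strands of the RefSeq promoter windows, which run from 250 bases before to 50 after each annotated start (GRCh38.p14). Windows were given for 5 of the 8 genes: ASNS, ALDH18A1, GLUD1, GOT1 and GLUL. A gene with several annotated starts has several windows, as ASNS and GLUL did. A single ASNS window holds the letters, once, beginning 68 bases before its start site (chr7:97872469-97872476), and the other holds none. The 250 bases ahead of that start (chr7:97872409-97872658, minus strand) are shown because ASNS lay furthest below its parental level, with the match in capitals.
ASNS: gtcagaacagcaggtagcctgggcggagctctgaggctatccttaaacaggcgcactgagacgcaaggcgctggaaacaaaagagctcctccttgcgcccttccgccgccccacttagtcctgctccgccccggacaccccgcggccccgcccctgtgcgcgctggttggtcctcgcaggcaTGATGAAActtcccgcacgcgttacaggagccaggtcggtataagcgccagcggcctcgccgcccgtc

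ALDH18A1 (ENSG00000059573, chr10:95605929-95656706, minus strand), the bifunctional synthase of pyrroline-5-carboxylate, opens the proline route. Parental cells had 178 CPM, clone 1 had 165, the library labelled clone 5 had 128 and clone 6 had 101, a clone mean of 131 ± 32.4 CPM (SD, n = 3). All 3 clones lay below parental cells, by a log2 ratio that ran from -0.11 (-0.14 to -0.08) in clone 1 to -0.82 (-0.86 to -0.79) in clone 6. The ALDH18A1 promoter (chr10:95656712-95656961, minus strand) held no TGATGNAA but one E-box CACGTG, the motif of MYC and related factors, which began 136 bases before the start site. It is shown beside ASNS because both genes were lower in the clones and their promoters differ in these letters, with the E-box in capitals.
ALDH18A1: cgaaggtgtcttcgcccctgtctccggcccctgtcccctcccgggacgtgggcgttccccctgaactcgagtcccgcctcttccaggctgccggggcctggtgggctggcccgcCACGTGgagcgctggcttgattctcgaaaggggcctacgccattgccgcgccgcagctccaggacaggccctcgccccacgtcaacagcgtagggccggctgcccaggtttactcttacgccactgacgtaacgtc

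PYCR1 (ENSG00000183010, chr17:81932384-81942412, minus strand), the mitochondrial reductase that finishes proline, had 29331 counts in parental cells and 12553, 11250 and 6570 in clone 1, the library labelled clone 5 and clone 6. This was 324 CPM against 109, 106 and 66.6 CPM, a clone mean of 93.9 ± 23.7 CPM (SD, n = 3). Every clone was lower, by 2.96-fold, 3.07-fold and 4.87-fold, with log2 ratios of -1.57 (-1.60 to -1.54), -1.62 (-1.65 to -1.59) and -2.28 (-2.32 to -2.25). Clone 1 and the library labelled clone 5 had nearly one level of PYCR1 between them, and clone 6 a lower one.

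PRODH (ENSG00000100033, chr22:18912777-18936553, minus strand), the first enzyme of proline breakdown, had 0 counts in each of the 4 libraries. At this depth a count of 0 allows up to 3 counts, or 0.0262 to 0.0332 CPM. PRODH did not pass the filter on low counts, and no fold is given for it.

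GLUD1 (ENSG00000148672, chr10:87050486-87094866, minus strand), glutamate dehydrogenase, had 196 CPM in parental cells, against 174 CPM (clone 1), 122 CPM (labelled clone 5) and 152 CPM (clone 6). The clone mean was 150 ± 26.3 CPM (SD, n = 3), and the clones lay below parental cells by log2 ratios of -0.17 (-0.20 to -0.14), -0.69 (-0.72 to -0.65) and -0.37 (-0.40 to -0.33). SHLD2 overlaps GLUD1 on the other strand with 3841 counts in parental cells, and the library kit does not mark strand, so reads of the overlap cannot be told apart.

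GPT2 (ENSG00000166123, chr16:46884378-46931297, plus strand), the mitochondrial alanine transaminase, had 18779 counts in parental cells and 2293, 3004 and 1259 in clone 1, the library labelled clone 5 and clone 6. In CPM this was 208 against 20.0, 28.2 and 12.8, with a clone mean of 20.3 ± 7.71 (SD, n = 3). All clones were lower, by 10.4-fold, 7.37-fold and 16.3-fold, or log2 ratios of -3.38 (-3.44 to -3.31), -2.88 (-2.94 to -2.83) and -4.02 (-4.11 to -3.94). The clone with the highest GPT2 was the one with the lowest ASNS.

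GOT1 (ENSG00000120053, chr10:99396870-99430624 in the count files, minus strand), the cytosolic aspartate transaminase, had 63.8 CPM in parental cells. Clone 1 (95.9 CPM) and clone 6 (79.4 CPM) lay above this and the library labelled clone 5 (58.7 CPM) just below. The clone mean was 78.0 ± 18.7 CPM (SD, n = 3), and the parental level fell inside the range of the clones. Log2 ratios were 0.59 (0.54 to 0.64), -0.12 (-0.17 to -0.07) and 0.32 (0.27 to 0.36), and the negative one turned to 0.01 with upper quartile scaling. GOT1 was the other gene of the 5 with TGATGNAA, on the opposite strand and 198 bases before its start site (chr10:99430815-99430822). Its 250 upstream bases (chr10:99430625-99430874, minus strand) are shown because GOT1 also matches TGATGNAA and was not lower across the clones. The match is TGATGCAA in GOT1 and TGATGAAA in ASNS, and it is in capitals as it reads on the printed strand.
GOT1: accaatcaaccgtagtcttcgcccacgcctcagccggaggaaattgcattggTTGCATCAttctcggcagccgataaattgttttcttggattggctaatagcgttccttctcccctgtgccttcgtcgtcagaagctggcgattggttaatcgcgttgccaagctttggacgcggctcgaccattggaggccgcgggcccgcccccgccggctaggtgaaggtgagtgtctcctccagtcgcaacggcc

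TGATGNAA occurs in 3.62% of the 35116 RefSeq promoter windows, and CACGTG in 7.26%. These shares are per window, so a gene with several windows has more room for a match. ASNS, BCAT1, CEBPG and ATF3, among the matches given here, also had windows without TGATGNAA. GLUD1 and GLUL held neither. TGATGCAA, the form in the GOT1 promoter, occurs in 0.866% of windows. Of the genes in the lists described below that had a window, BCAT1, a branched-chain transaminase, held it, as did CHAC1 and CEBPG, which belong to the ATF4 response. TGATGGAA, another form of TGATGNAA, was held by SLC25A11 and ATF3. SLC25A11 was higher in every clone than in parental cells, and BCAT1, CHAC1, CEBPG and ATF3 were lower in every clone. List genes without TGATGNAA in their windows also went both ways. TRIB3, DDIT3 and CEBPB were lower in every clone, and MDH1 and ALDH4A1 were higher in every clone. Of all genes tested, 30.5% were lower in every clone and 28.6% higher, and a link between letters and level was not tested. The TGATGCAA matches are set side by side with 10 bases on each side, each on the strand where it reads TGATGCAA.
BCAT1: gtcttcctgcTGATGCAAtccgctaggt
CHAC1: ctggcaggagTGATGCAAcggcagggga
CEBPG: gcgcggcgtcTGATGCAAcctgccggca
These matches began 48, 209 and 42 bases before their start sites, and they are a description of letters and not of binding.

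GLUL (ENSG00000135821, chr1:182381704-182392206, minus strand), glutamine synthetase, had the widest spread of log2 ratios among the 7 genes with counts. Parental cells had 170 CPM, clone 1 had 329, the library labelled clone 5 had 198 and clone 6 had 103, with a clone mean of 210 ± 114 CPM (SD, n = 3). Clone 1 was above parental cells (log2 ratio 0.95, 0.92 to 0.98), the library labelled clone 5 slightly above (0.22, 0.19 to 0.25), and clone 6 below (-0.73, -0.76 to -0.69). The spread of the clones thus spans the parental level. Without clone 1, the fitted log2 difference of GLUL went from 0.30 to -0.18.

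**Figure D2:**
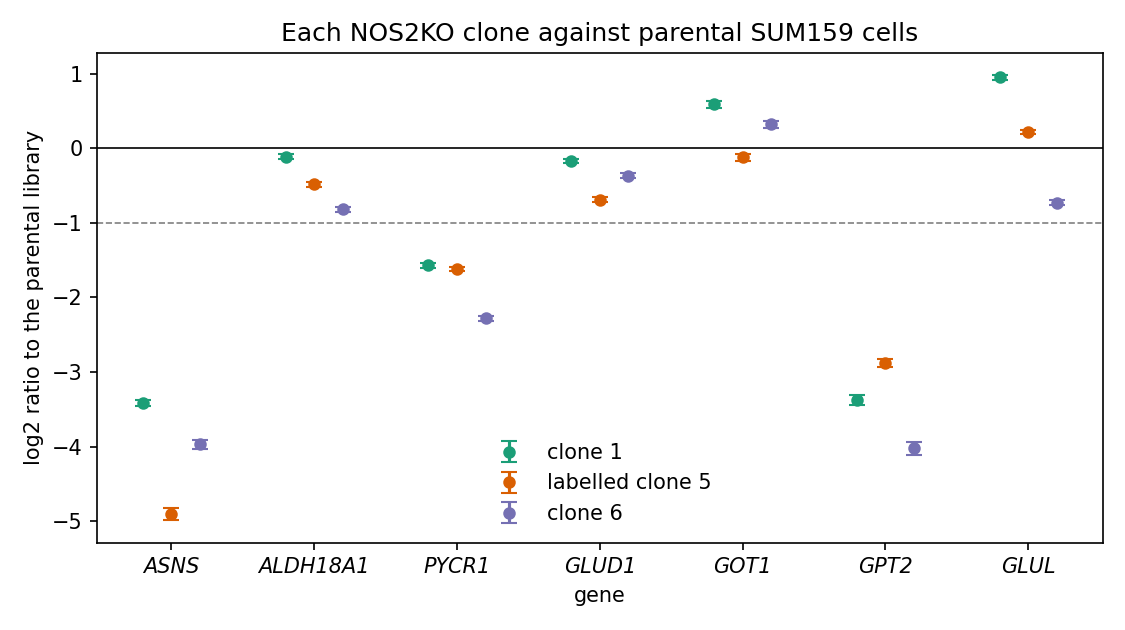
Log2 ratio of each NOS2KO clone to the parental library for 7 genes, with exact 95% intervals from the counts as bars (counting error only) and 1 point per clone. The solid line is no change and the dashed line a log2 ratio of -1; all ASNS, PYCR1 and GPT2 points lie below the dashed line, and the GLUL points run from 0.95 to -0.73. The GOT1 point of the library labelled clone 5 (-0.12) turns to 0.01 with upper quartile scaling.

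A clone was compared with another by the log2 ratio of their CPM. ASNS in the library labelled clone 5 was lower than in clone 1 by a ratio of -1.49 (-1.58 to -1.40), the only one of the 7 past 1 in that pair, while 16.1% of all genes of at least 10 CPM were. Between clone 6 and clone 1, GLUL alone passed 1, with -1.68 (-1.71 to -1.65), against 15.9% of genes. Between clone 6 and the library labelled clone 5, GPT2 alone did, with -1.14 (-1.24 to -1.05), against 4.91% of genes. PYCR1 and ALDH18A1 differed between clones by at most 0.72 and 0.71 in size. With 1 library per clone these ratios have no replicate check.

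The genes' positions among all genes were read from the mean of the 3 log2 ratios, which was -4.10 ± 0.75 (SD, n = 3 clones) for ASNS, -3.43 ± 0.57 for GPT2, -1.82 ± 0.40 for PYCR1, -0.47 ± 0.36 for ALDH18A1 and -0.41 ± 0.26 for GLUD1. It was 0.26 ± 0.36 for GOT1 and 0.15 ± 0.84 for GLUL, both within their own SD of no change. Of 10708 genes, 43 (0.402%) had a lower mean than ASNS, 68 (0.635%) than GPT2, and 302 (2.82%) than PYCR1. ALDH18A1 and GLUD1 stood near the lower middle of the genes, with 27.9% and 31.5% of genes below them.

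**Figure D3:**
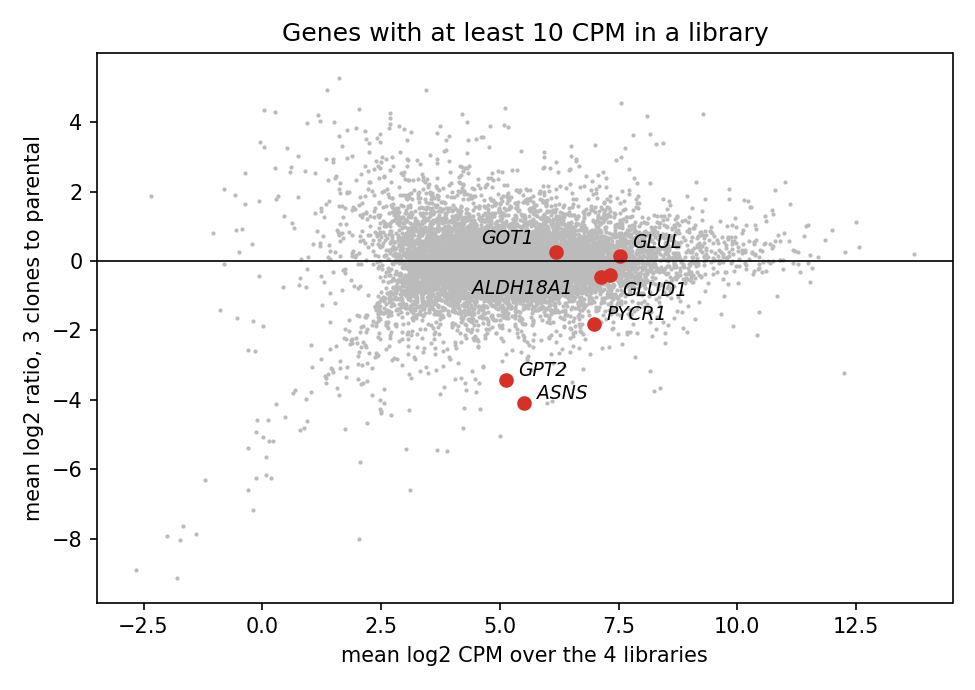
Mean log2 ratio of the 3 NOS2KO clones to parental cells against mean log2 CPM over the 4 libraries, 1 grey point per gene with at least 10 CPM in a library (10708 genes) and red points for 7 of the 8 genes. ASNS (-4.10) and GPT2 (-3.43) lie below nearly all genes of like level, PYCR1 (-1.82) below most, and the other 4 among the bulk of genes.

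Levels per length set the genes in a new order. In parental cells, TPM was highest for PYCR1 (426) and ASNS (328), followed by GLUD1 (211), ALDH18A1 (179), GPT2 (124), GOT1 (99.7) and GLUL (71.4). In the clones, GLUD1 had a mean of 153 ± 12.9 TPM (SD, n = 3), and ALDH18A1 (126 ± 24.7), PYCR1 (118 ± 31.4) and GOT1 (115 ± 17.1) lay within their own SD of each other, and GLUL (82.9 ± 39.3) within its SD of GOT1 and PYCR1. ASNS (19.4 ± 7.61) and GPT2 (11.8 ± 5.33) came last. The summed TPM of the 8 genes was 1440.0 in parental cells and 719, 633 and 528 in clone 1, the library labelled clone 5 and clone 6. Without ASNS, PYCR1 and GPT2 it was 562 against 557, 458 and 416, so these 3 genes carried most of the difference.

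GPT2, GOT1 and GLUD1 were next set against the genes of their sister enzymes. GPT2 gave 99.1% of alanine transaminase TPM in parental cells and 97.5%, 83.0% and 82.2% in clone 1, the library labelled clone 5 and clone 6. The rest was GPT, at 0.83 CPM in parental cells, lower in clone 1 (0.227 CPM) and higher in the library labelled clone 5 (2.5 CPM) and clone 6 (1.2 CPM), so GPT moved the share as well as GPT2. The share of GOT1 among aspartate transaminases, 39.0% in parental cells, was 49.1%, 39.8% and 50.4% in the clones, with GOT2 the mitochondrial partner. GLUD1 kept 99.0% or more of glutamate dehydrogenase TPM in every library, though reads of its near-identical relative GLUD2 may be split between both.

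**Figure D4:**
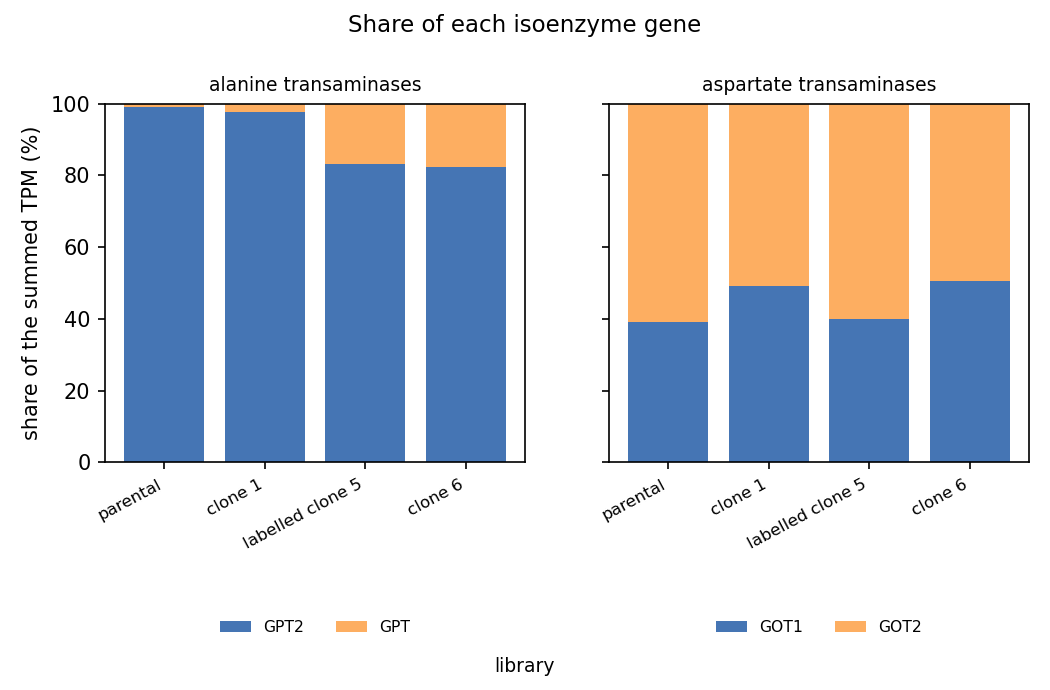
Share (%) of each isoenzyme gene in the summed TPM of its enzyme family, 1 stacked bar per library. GPT2 goes from 99.1% in parental cells to 82.2% in clone 6, and GOT1 stays between 39.0% and 50.4%.

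ALDH18A1 was also set against the enzymes that share its product, pyrroline-5-carboxylate. Its TPM was 20.5 times that of ALDH4A1, which oxidises the product to glutamate, in parental cells, and 9.06, 4.71 and 4.83 times in the clones. Against OAT, which makes it from ornithine, the ratio was 3.41 in parental cells and 1.36, 1.5 and 1.49 in the clones. Both ratios were lower in every clone than in parental cells. ALDH4A1 had 8.52 CPM in parental cells and 17.9, 26.5 and 20.5 CPM in clone 1, the library labelled clone 5 and clone 6. OAT had 47.0 CPM against 109, 76.2 and 60.8 CPM in the same order. Both were higher in every clone, so they moved the ratios as well as ALDH18A1.

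The comparison across all genes used edgeR's quasi-likelihood test, whose spread came from the 3 clones. With Benjamini-Hochberg adjustment, 0.00444% of the 22511 genes tested passed an adjusted p of 0.05 (1 gene). The study's criterion, a log2 fold change beyond 1 either way with p under 0.05, was applied here to edgeR's p before adjustment, where the study used a Wald test. It was met by 5.34% of genes lower in the clones and 4.24% higher. In this fit, given without a test for the 8 genes, the log2 differences were -3.98 for ASNS, -3.35 for GPT2 and -1.79 for PYCR1. Those of ALDH18A1, GLUD1, GOT1 and GLUL were -0.44, -0.39, 0.29 and 0.30, and the median over all genes was 0.10.

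Other genes of the same pathways, 49 in 4 lists, were counted in the same way. Of the 45 tested, 14 (31.1%) were lower and 14 (31.1%) higher in all 3 clones, near the 30.5% and 28.6% of all genes tested. The criterion took 4 (8.89%) as lower and 2 (4.44%) as higher, beside 5.34% and 4.24% of all genes, and the median fitted log2 difference was 0.19. After Benjamini-Hochberg adjustment in edgeR 0 passed, 5 lower and 3 higher genes had p under 0.05 before adjustment, and DESeq2 called 2 lower (BCAT1 and GFPT1) and 0 higher, where it called 2.2% of all genes lower and 2.37% higher. Without clone 1 the criterion took 8 lower and 5 higher genes, without the library labelled clone 5 it took 2 and 2, and without clone 6 it took 2 and 0.

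Around asparagine and aspartate, 1 of 9 tested genes (11.1%) met the criterion as higher and 0 as lower, beside 4.24% and 5.34% of all genes. It was SLC25A11, the oxoglutarate carrier of the malate-aspartate shuttle, at 27.0 CPM in parental cells and 56.0 ± 5.72 CPM (SD, n = 3) in the clones. Its log2 fold change was 1.05 ± 0.28 (SE), with an adjusted p of 0.350 by edgeR with Benjamini-Hochberg adjustment. GOT2 and ASNS, which both have aspartate as a substrate or product, parted. ASNS had 2.11 times the TPM of GOT2 in parental cells and 0.198, 0.0789 and 0.171 times in the clones. GOT2 itself had 155 CPM in parental cells and 154, 138 and 121 CPM in clone 1, the library labelled clone 5 and clone 6. In the proline and ornithine list, 1 of 5 (20%) met the criterion as higher and 0 as lower, beside the same shares of all genes. A single call in lists this short describes the gene and not the list. The gene was ALDH4A1, at 8.52 CPM against 21.6 ± 4.42 CPM (SD, n = 3). Its difference was 1.34 ± 0.37 (log2, SE), and its adjusted p 0.36 by edgeR with Benjamini-Hochberg adjustment.

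In the glutamate and glutamine list, 1 of 21 (4.76%) met the criterion as lower, a share near the 5.34% of all genes. It was BCAT1, which transfers the nitrogen of branched-chain amino acids to form glutamate. It had 357 CPM in parental cells and 97.7 ± 9.69 CPM (SD, n = 3) in the clones, or -1.87 ± 0.29 (SE) in log2, with an edgeR Benjamini-Hochberg adjusted p of 0.271. GGT1, which cleaves glutathione, had 2.59 CPM in parental cells, less in clone 1 (0.384 CPM) and more in the library labelled clone 5 (38.4 CPM) and clone 6 (28.6 CPM), so like GLUL it went both ways. Among enzymes that, like ASNS, take the amide nitrogen of glutamine, 3 of 10 (30%) met the criterion as lower, beside 5.34% of all genes. These were GFPT1 and GFPT2, which open the hexosamine route, at 276 and 165 CPM in parental cells against 67.9 ± 11.4 and 63.5 ± 31.0 CPM (SD, n = 3), and PPAT, which opens purine synthesis, at 86.2 against 40.0 ± 12.7 CPM. Their edgeR Benjamini-Hochberg adjusted p values were 0.273, 0.435 and 0.410.

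**Figure D5:**
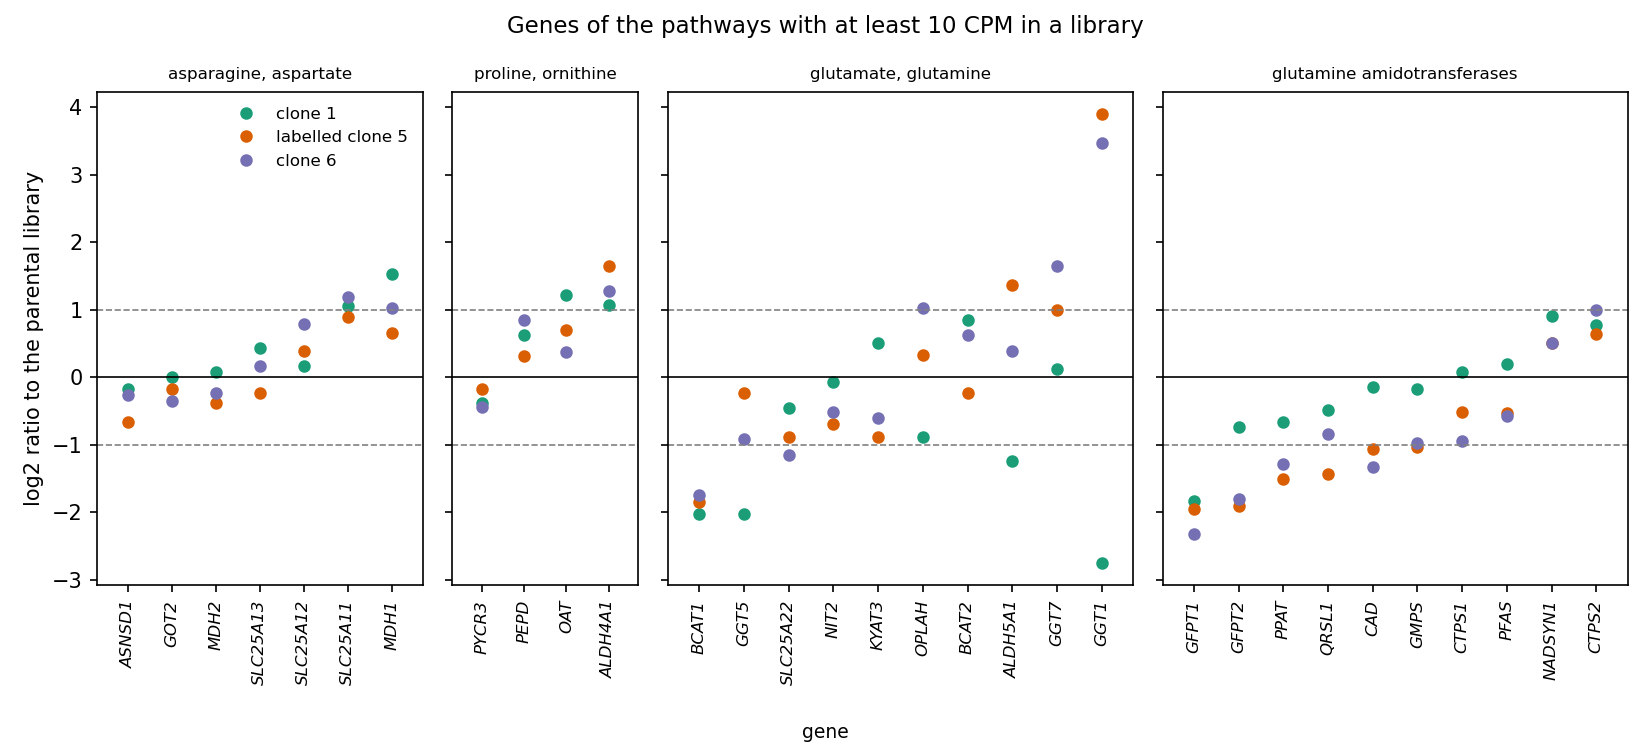
Log2 ratio of each NOS2KO clone to the parental library for genes of the same pathways with at least 10 CPM in a library, 1 point per clone, in 4 lists; dashed lines mark ratios of 1 and -1. GFPT1 and BCAT1 lie below -1 in every clone, ALDH4A1 lies above 1 in every clone, and GGT1 has clone 1 below parental cells and the other clones above.

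The lists here, like those above, were chosen with earlier results of these data known, so their shares are a description and no independent support. One list held 17 genes, regulators tied to these enzymes together with genes of the ATF4 response such as CHAC1. Of these 17, 7 (41.2%) met the criterion as lower and 0 as higher, and 12 (70.6%) were lower in all clones, beside 5.34%, 4.24% and 30.5% of all genes. DESeq2 called 5 of them lower (TRIB3, CHAC1, CEBPB, CEBPG and DDIT3), while edgeR with Benjamini-Hochberg adjustment called 0, with 7 under 0.05 before adjustment. ATF4 had 593 CPM in parental cells and 226 ± 61.2 CPM (SD, n = 3) in the clones, or -1.39 ± 0.42 (SE) in log2, and an edgeR Benjamini-Hochberg adjusted p of 0.352. TRIB3, a target of ATF4, had 553 CPM against 35.6 ± 14.5 CPM, with an adjusted p of 0.259 by the same edgeR test. CHAC1, which breaks down glutathione, had 85.5 CPM against 1.54 ± 0.346 CPM, with an adjusted p of 0.182 by that test. The others were CEBPB, CEBPG, DDIT3 and NUPR1. MYC, a factor that binds E-boxes, had 604 CPM in parental cells, 672 CPM (clone 1), 129 CPM (labelled clone 5) and 220 CPM (clone 6). Whether it binds the E-box letters of ALDH18A1 in these cells was not tested. Of the serine and folate genes PHGDH, PSAT1, PSPH, SHMT2 and MTHFD2, set beside them for scale, PSAT1, SHMT2 and MTHFD2 met the criterion as lower, and all 5 were lower in every clone, beside 5.34% and 30.5% of all genes. DESeq2 called the same 3 lower, and edgeR after adjustment 0.

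The genes most like ASNS in their 3 log2 ratios, by Euclidean distance among the 10708 genes, were CXCL3 (0.48), TRIB3 (0.69), SPTB (0.70), ABCG1 (0.77) and SOD2 (0.78). For GLUL they were GNG12 (0.33), PGM1 (0.35), ENO1 (0.35), H1FX (0.35) and OMA1 (0.37). These distances rest on 3 ratios that share the parental library.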

How the data were processed

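Poly(A) mRNA was read as paired ends from 4 libraries, 1 of parental SUM159 cells and 1 of each of 3 NOS2KO clones, with a kit that does not mark strand. The deposited values are whole-number read counts for each gene, which the authors did not normalize. The submitters' processing notes list bcl2fastq 2.17, Trimmomatic 0.36, STAR 2.5.2b, featureCounts from Subread 1.5.2, DESeq2 and GRCh38; the strand setting and annotation release are not given in the sources used here. Of 57500 gene identifiers, 56898 had a GENCODE release 29 symbol, and 54784 the same start and end there. Totals were 90467395 to 122171287 counts.

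Counts were fitted in R 4.3.3 with edgeR 4.0.16 (filterByExpr, TMM, glmQLFit and glmQLFTest) on the 22511 genes kept, as 3 clones against 1 parental library. Only the clones inform the spread (residual degrees of freedom 2, prior 2.75), and the parental cells are taken to vary alike. A p-value thus sets the difference from the 1 parental library against a spread drawn from the 3 clones. An exact permutation test of 1 library against 3 cannot go below 0.25 and was not used. The fit was tested on simulated data. DESeq2 1.42.0 was an alternative. Ratios of counts carry exact Clopper-Pearson 95% intervals. TPM used the exon length in the files. The closest genes and the mean ratio of each gene among all genes used log2 CPM with a prior count of 2. Other steps used Python 3.11.15, pandas 2.3.3, numpy 2.4.6, scipy 1.17.1 and matplotlib 3.10.9.

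The 8 genes and all lists were chosen with earlier results of these data known. Genes named are these 8, list genes that met the criterion or had at least 10 CPM in a library, their pseudogenes and paralogs, overlapping genes, and the 5 genes closest to ASNS and to GLUL. Some list genes are not reported here. Promoter sequences are from RefSeq.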

Additional observations from a re-analysis of the deposited data

How the results depend on the processing

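Under RLE, upper quartile and library size scaling, ASNS, GPT2 and PYCR1 stayed lower by more than 1 in log2 in every clone (3 genes each time). Leaving out 1 clone cannot break this condition once all 3 clones meet it, so that is no check of it. The fitted log2 difference without 1 clone ran from -4.36 to -3.65 for ASNS, -3.65 to -3.11 for GPT2, -1.91 to -1.59 for PYCR1, -0.64 to -0.28 for ALDH18A1, -0.51 to -0.24 for GLUD1, 0.12 to 0.48 for GOT1 and -0.18 to 0.63 for GLUL, whose sign turned without clone 1. Upper quartile scaling moved the median over all genes from 0.10 to 0.20. Over the 36693 genes with a count in some library, the median was 0.31 with edgeR without the filter and 0.31 with DESeq2. Of these, DESeq2 gave an adjusted p to 18197 genes.

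Lower genes at an adjusted p under 0.05 numbered 1 with edgeR, 6 without the filter on low counts, 5 with the bias-adjusted quasi-likelihood method, 400 with DESeq2 and 0 without any 1 clone. Higher ones numbered 0 with edgeR and 432 with DESeq2. With DESeq2, lower calls went from 0 to 2 among pathway genes, to 5 among regulators and ATF4 response genes and to 3 among serine and folate genes. Genes higher by the criterion numbered 955, against 1675 with DESeq2 and 641 to 1791 without 1 clone (1791 without clone 1). Pathway genes by the criterion numbered 2 to 8 lower and 0 to 5 higher without 1 clone, the highest both without clone 1. With TGATGCAA alone, 1 of the 5 genes with a promoter window matched instead of 2. The cause of these shifts was not tested. No paired analysis was possible because the parental group has 1 library, so the groups share fewer than 2 replicate numbers, and a clone number pairs no samples.

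With 1 parental library and 1 library per clone, clonal differences and the effect of the targeting cannot be told apart, and a difference in the handling of the parental library cannot be told apart from genotype.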
